A study of Homo sapiens with 2 samples.

Results

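The insulin-like growth factor (IGF) axis was described through 10 genes chosen by name, the binding proteins IGFBP1 to IGFBP7, the receptor IGF1R and the receptor substrates IRS1 and IRS2. All 10 were found among the 20802 amplicons of the table. The genes were chosen with their values in these libraries known, so the values below are a description and no test is given on them. The study measured transcripts in 2 human prostate cancer cell lines, LNCaP, grown from a lymph node metastasis, and MDA Pca 2b, grown from a bone metastasis. Both are labelled wild type, no treatment is named, and the culture medium is not given in the sources used here. Each line had 1 library, with 10778061 counts in LNCaP against 8558660 in MDA Pca 2b.

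IGF1 and IGF2 are growth factors that bind the tyrosine kinase IGF1R, which phosphorylates the docking proteins IRS1 and IRS2 and so engages PI3 kinase, AKT and the RAS and ERK cascade. IGFBPs are secreted proteins that hold IGFs away from the receptor, carry them, or deliver them when proteases cut the binding protein. In the prostate, IGFBP3 is a known substrate of prostate-specific antigen, and IGFBP7 differs from the other members in its low affinity for IGFs.

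Each gene was read through 1 amplicon, so counts do not scale with transcript length and levels of different genes also carry the efficiency of their primers. Counts were scaled to a common library size and are given as CPM. Genes with 10 counts or more in a library were taken as measured. A 2-fold difference was called where the exact 95% interval of the ratio lay beyond 2-fold. With 1 library per line no difference has a replicate check, and every interval covers counting error only. In RNA from whole cultures, fewer expressing cells and less RNA per cell cannot be told apart.

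The RefSeq table of promoters (GRCh38.p14) matched 8 of the 10 genes. The windows printed here hold the 250 bases upstream of the start for the called members with a window, IGFBP3, IGFBP5, IRS1 and IRS2, and for IGFBP4, which had no reads, as a contrast. The IGFBP3 window lies at chr7:45921273-45921522 (minus strand), that of IGFBP5 at chr2:216695550-216695799 (minus) and that of IGFBP4 at chr17:40443200-40443449 (plus). The IRS1 window lies at chr2:226799821-226800070 (minus) and that of IRS2 at chr13:109786584-109786833 (minus). Capitals mark the short motifs searched on both strands, with overlaps between motifs kept. The TATA box was searched as TATAAA, with TATATA as a second spelling and TATTTA as another. The GC box was searched as GGGCGG, the E-box as CACGTG, the steroid receptor half-site as AGAACA, and forkhead-like motifs as TGTTTAC or, in a further spelling, TGTTTTG. They were picked with these sequences in view. Neighbouring GC boxes in IRS2 overlap by 1 base.
IGFBP3: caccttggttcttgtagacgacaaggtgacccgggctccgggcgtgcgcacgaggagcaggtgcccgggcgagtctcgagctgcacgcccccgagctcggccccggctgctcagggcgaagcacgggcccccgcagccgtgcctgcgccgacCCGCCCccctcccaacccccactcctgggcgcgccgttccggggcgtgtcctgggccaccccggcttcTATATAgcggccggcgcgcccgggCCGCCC
IGFBP5: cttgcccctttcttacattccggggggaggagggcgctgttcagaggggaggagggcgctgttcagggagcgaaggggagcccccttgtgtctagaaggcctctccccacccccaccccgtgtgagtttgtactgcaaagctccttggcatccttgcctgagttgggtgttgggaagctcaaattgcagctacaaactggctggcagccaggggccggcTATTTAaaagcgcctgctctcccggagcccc
IGFBP4: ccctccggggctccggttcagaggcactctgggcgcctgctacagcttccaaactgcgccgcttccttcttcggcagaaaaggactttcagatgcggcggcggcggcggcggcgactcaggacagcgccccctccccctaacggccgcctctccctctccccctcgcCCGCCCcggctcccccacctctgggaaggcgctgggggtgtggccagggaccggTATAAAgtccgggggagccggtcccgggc
IRS1: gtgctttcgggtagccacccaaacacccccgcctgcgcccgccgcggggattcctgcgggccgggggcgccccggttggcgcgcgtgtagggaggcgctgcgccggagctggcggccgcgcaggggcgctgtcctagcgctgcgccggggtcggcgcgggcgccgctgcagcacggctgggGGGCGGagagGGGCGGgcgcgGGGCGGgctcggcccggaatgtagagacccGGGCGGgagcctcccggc
IRS2: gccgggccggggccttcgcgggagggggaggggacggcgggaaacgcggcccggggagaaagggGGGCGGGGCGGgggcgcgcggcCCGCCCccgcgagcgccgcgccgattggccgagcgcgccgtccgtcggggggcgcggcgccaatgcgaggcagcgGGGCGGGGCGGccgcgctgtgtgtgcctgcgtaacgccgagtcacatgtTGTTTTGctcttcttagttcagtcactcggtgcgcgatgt

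A TATA-like motif began 30 bases upstream of the start in IGFBP3 (TATATA), 31 bases upstream in IGFBP5 (TATTTA) and 29 bases upstream in IGFBP4 (TATAAA). Of all 35116 windows, 3.73% held the TATATA spelling anywhere on either strand, 11.7% held the TATTTA spelling and 10.7% the TATAAA spelling. IRS1 and IRS2 had none of these. They held 39 and 42 CpG dinucleotides, IGFBP3 held 32 and IGFBP4 24, against a median of 11 over all windows. IRS1 held 4 GC boxes, IRS2 5, IGFBP3 2 and IGFBP4 1, a motif found in 42.6% of all windows, and IGFBP5 held none. IRS2 also held TGTTTTG, starting 40 bases upstream of the start, which 4.30% of all windows held. The printed windows held no E-box, half-site or TGTTTAC, which 6.34%, 12.4% and 2.98% of all windows held. IGFBP5 was the least CpG-rich of the printed windows, with 8 CpG dinucleotides and a GC content of 61.2%, against 32 and 76.0% in IGFBP3. A TATA-like motif was thus present in a strongly read gene and in an unread one. These matches describe the letters of the windows and are no evidence of binding.

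**Figure D1:**
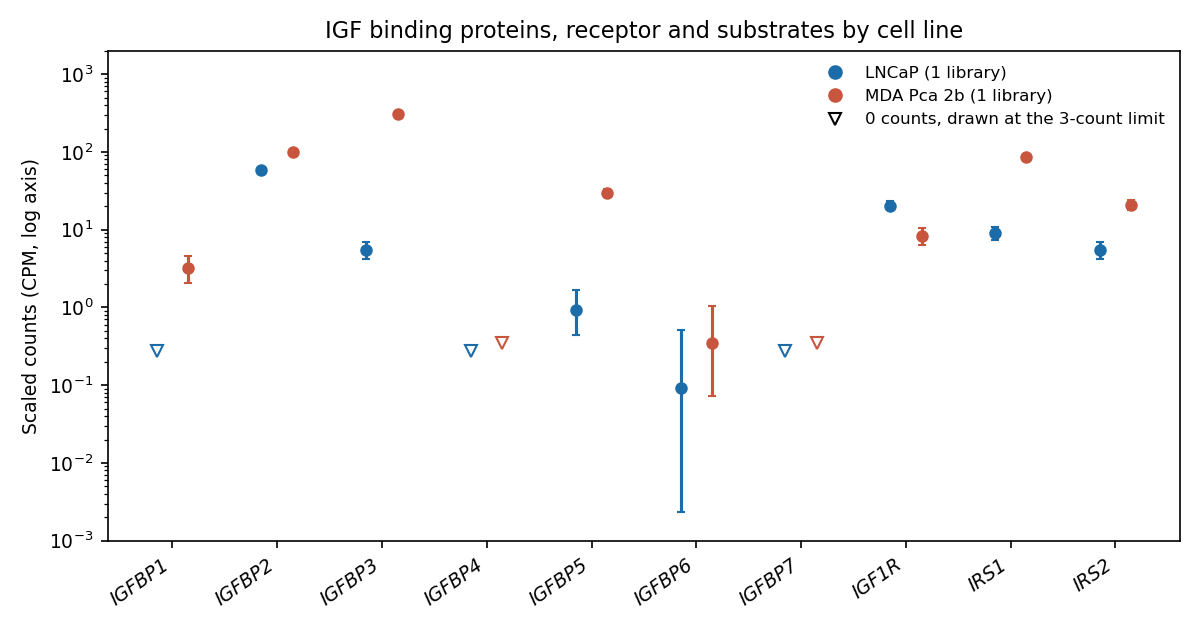
Scaled counts (CPM, log axis) of the 10 genes in LNCaP and MDA Pca 2b, 1 library each. Points are the measured values with exact 95% Poisson intervals, and open triangles stand for 0 counts drawn at the 3-count limit; IGFBP3 stands at 5.44 CPM in LNCaP beside 307 CPM in MDA Pca 2b, and IGF1R runs the other way.

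Of the measured members with reads in both libraries, IGFBP3 and IGFBP5 had the largest ratios. IGFBP3, the main carrier of circulating IGFs, had 59 counts in LNCaP (5.44 CPM, exact Poisson 95% interval 4.14 to 7.02) against 2616 in MDA Pca 2b (307 CPM, 296 to 319). It was 56.5-fold higher in the MDA Pca 2b library (43.6 to 74.4), and 156 of the 14418 measured genes had a higher log2 ratio. IGFBP5, a binding protein that also attaches to extracellular matrix, had 10 counts in LNCaP (0.923 CPM) against 253 in MDA Pca 2b (29.7 CPM), a ratio of 32.2 (17.2 to 68.0). The intervals of these ratios overlap, so IGFBP3 and IGFBP5 cannot be ordered by fold. IGFBP1, a binding protein of liver and decidua that insulin represses in the liver, had 0 counts in LNCaP against 27 in MDA Pca 2b (3.17 CPM, 2.09 to 4.62). Against the 3 counts that a 0 allows in the LNCaP library, and with the 27 counts taken as they stand, it was at least 11.5-fold higher in the MDA Pca 2b library. The exact 95% interval, which covers the counting error of both libraries, began at 8.70-fold. Only 147 amplicons, 0.707% of all, were at 0 in LNCaP with 10 or more counts in MDA Pca 2b.

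IGFBP2, a binding protein common in epithelia and raised in many tumours, was read well in both lines. It had 637 counts in LNCaP (58.8 CPM) against 844 in MDA Pca 2b (99.2 CPM), 1.69-fold higher in the MDA Pca 2b library (1.52 to 1.87) and under 2-fold. IGFBP6, which prefers IGF2 over IGF1, had 1 count in LNCaP and 3 in MDA Pca 2b, too few to place. IGFBP4 and IGFBP7 had 0 counts in both libraries, which allows up to 0.277 CPM in LNCaP beside 0.352 CPM in MDA Pca 2b. Whether their amplicons read these transcripts was not tested, since neither library gave any read. The 3 unmeasured members of 10 compare with 30.7% of all amplicons under 10 counts in both libraries, and 17.4% were at 0 in both.

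The make-up of the IGFBP counts was therefore different. IGFBP2 held 90.1% of the 707 IGFBP counts in LNCaP (exact binomial 95% interval 87.7 to 92.2) against 22.6% of the 3743 in MDA Pca 2b (21.2 to 23.9). IGFBP3 held 8.35% in LNCaP (6.41 to 10.6) against 69.9% in MDA Pca 2b (68.4 to 71.4). IGFBP5 held 1.41% (0.680 to 2.59) and 6.76% (5.98 to 7.61). These shares also depend on how well the amplicon of each gene amplifies, which was not measured.

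**Figure D2:**
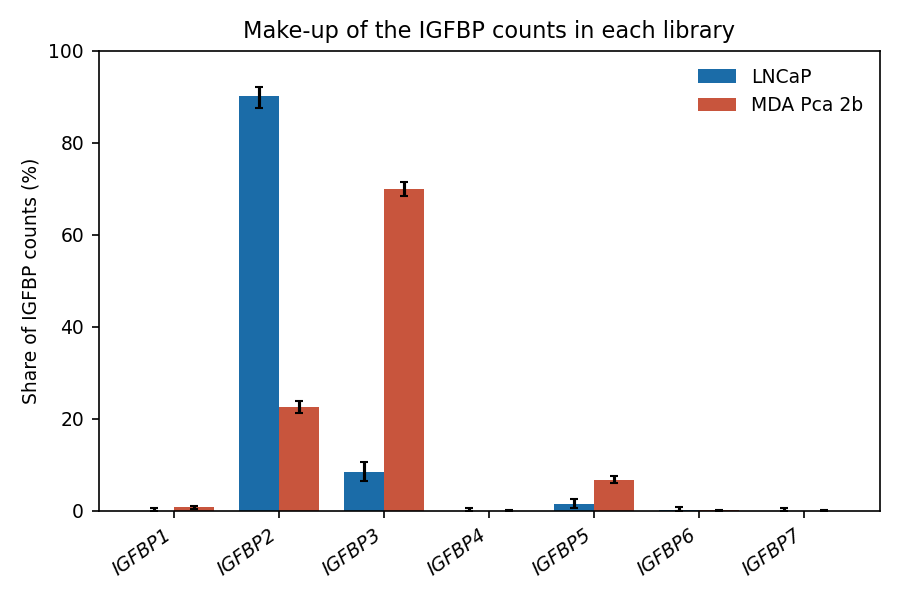
Share of each binding protein in the summed IGFBP counts of a library (%), with exact binomial 95% intervals as bars of error, 1 library per line. IGFBP2 holds 90.1% in LNCaP, and IGFBP3 holds 69.9% in MDA Pca 2b.

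Position in the genome was shared by pairs of these genes. In the RefSeq gene table IGFBP1 and IGFBP3 are next to each other on chromosome 7 among protein-coding genes, and both were called higher in the MDA Pca 2b library. TNS3, a tensin gene on the far side of IGFBP3, had 96 and 101 counts in LNCaP and MDA Pca 2b, 1.34-fold higher in the MDA Pca 2b library (1.003 to 1.79) and not called. IGFBP2 and IGFBP5 are next to each other on chromosome 2, where IGFBP5 was called and IGFBP2 was not. Their outer neighbours were not called either. RPL37A, a ribosomal protein gene beside IGFBP2, was 1.30-fold higher in LNCaP (1.27 to 1.33), and TNP1, a spermatid protein gene beside IGFBP5, was 1.87-fold higher in the MDA Pca 2b library (1.15 to 3.08).

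Both receptor substrates were called higher in the MDA Pca 2b library, while the receptor had more counts in LNCaP without passing the 2-fold rule. IGF1R had 221 counts in LNCaP (20.4 CPM) against 70 in MDA Pca 2b (8.22 CPM), which is 2.48-fold more in LNCaP (1.89 to 3.29). Its interval reached below 2-fold, so it was not called. IRS1 had 97 counts in LNCaP (8.95 CPM) against 736 in MDA Pca 2b (86.5 CPM), 9.66-fold higher in the MDA Pca 2b library (7.81 to 12.1). IRS2 had 59 counts in LNCaP (5.44 CPM) against 176 in MDA Pca 2b (20.7 CPM), 3.80-fold higher in the MDA Pca 2b library (2.81 to 5.19). The intervals of IRS1 and IRS2 do not overlap, so the difference was larger for IRS1 as far as counting error goes.

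IRS1 is coded by 1 exon in GENCODE release 29, IRS2 by 2, IGF1R by 21 and the IGFBPs by 4 or 5. Genes with 1 coding exon were shifted towards MDA Pca 2b, with a median log2 ratio of 0.65 over 1380 measured genes, against −0.13 over 11538 genes with more coding exons. Of them, 10% were called towards MDA Pca 2b and 5.58% towards LNCaP, against 10.5% and 14.7% of the others. The IRS1 log2 ratio was 3.27. The part of this shift in the IRS1 ratio was not tested.

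In all, 5 of the 7 measured members, 71.4%, were at least 2-fold higher in the MDA Pca 2b library (IGFBP1, IGFBP3, IGFBP5, IRS1 and IRS2) and 0 in LNCaP, where 24.1% of all measured genes were at least 2-fold apart in either direction. Over all 14418 measured genes, 10.9% were called towards MDA Pca 2b and 13.2% towards LNCaP. The median log2 ratio was 3.27 over the measured members and −0.002 over all measured genes. Because the same ratios were in view when the members were chosen, nothing is read from these shares. By distance over both log2 levels, the genes nearest to IGFBP3 included AGR2, a protein disulfide isomerase of secretory epithelia (76 and 2520 counts in LNCaP and MDA Pca 2b), and PPP1R1B, a phosphatase inhibitor (65 and 1886). Those nearest to IGF1R were REEP4, MERTK and BRMS1L, at 217, 228 and 216 counts in LNCaP and 72, 69 and 72 in MDA Pca 2b. With 2 libraries, such likeness rests on 2 values per gene.

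**Figure D3:**
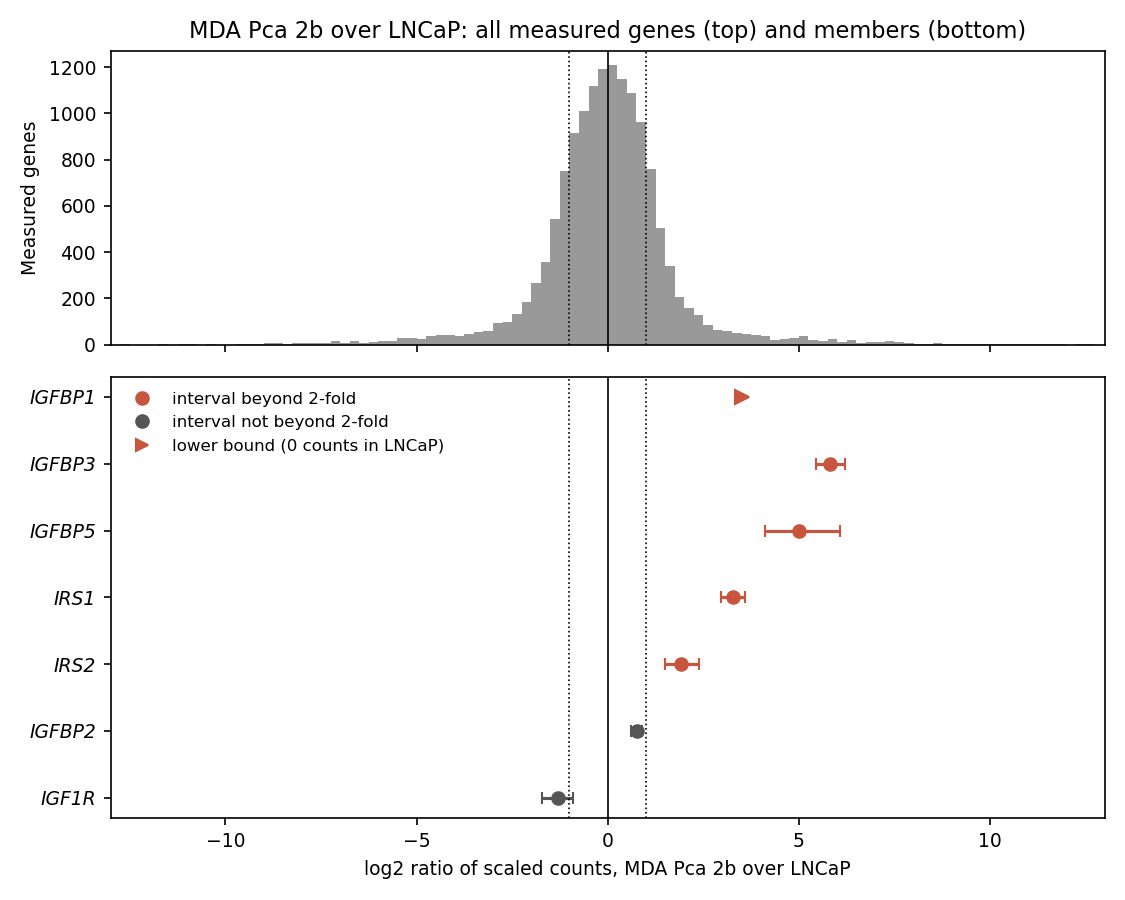
Log2 ratio of scaled counts, MDA Pca 2b over LNCaP. The top panel counts the 14418 measured genes in steps of the ratio with 0.5 counts added; the bottom panel shows the 7 measured members with exact 95% intervals, dotted lines mark 2-fold, and IGFBP1 is drawn as a bound against 3 counts. Members in red, IGFBP1, IGFBP3, IGFBP5, IRS1 and IRS2, lie beyond 2-fold on the MDA Pca 2b side.

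IGF1 and IGF2 had few reads, and of the other ligand and receptor genes IGF2R was called, towards LNCaP. IGF1 had 11 counts in LNCaP against 14 in MDA Pca 2b, a ratio of 1.62 with an interval from 0.684 to 3.95. IGF2 had 3 and 1 counts, too few to place. INS, the insulin gene, had 56 and 81 counts, 1.84-fold higher in the MDA Pca 2b library (1.29 to 2.64), and the insulin receptor gene INSR had 387 and 315, a ratio of 1.04 (0.890 to 1.21). INSRR, the insulin receptor-related receptor, had 4 and 10 counts, with an interval from 0.918 to 13.9. IGF2R, which takes IGF2 to lysosomes for breakdown, had 749 counts in LNCaP (69.1 CPM) against 188 in MDA Pca 2b (22.1 CPM), which is 3.13-fold more in LNCaP (2.66 to 3.69). It was the 1 called gene among the 6 measured of this list, which had a median log2 ratio of 0.37. Among all measured genes, 10.9% were called towards MDA Pca 2b and 13.2% towards LNCaP. The 6 include IGF1R, a member chosen with its value known. IGFALS is not analysed here.

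Several genes for proteases that cut IGFBPs were also higher in the MDA Pca 2b library. Of 8 measured genes on the list of these proteases and their inhibitors, 4 were called towards MDA Pca 2b and 2 towards LNCaP. The median log2 ratio was 0.97. The inhibitor genes STC1 and STC2 were not called. STC1 had 85 counts in LNCaP against 63 in MDA Pca 2b, and STC2 had 2554 against 2326. Over all measured genes, 10.9% and 13.2% were called in these directions. The list was chosen with earlier results of these data known. MMP7 (matrilysin, which cleaves IGFBP3 and IGFBP5) had 77 counts in LNCaP against 1822 in MDA Pca 2b, 30.1-fold higher in the MDA Pca 2b library (24.0 to 38.4). HTRA1, a secreted serine protease that cleaves IGFBP5, had 27 and 183 counts, 8.63-fold higher (5.74 to 13.5). The kallikrein genes KLK2 and KLK3, the latter coding for prostate-specific antigen, were higher in the MDA Pca 2b library by 4.75-fold (4.50 to 5.02) and 3.33-fold (3.23 to 3.43). These are close paralogs, so reads could have been split between them by the authors' counting. ADAM9, a membrane metalloproteinase, was 4.47-fold higher in LNCaP (4.10 to 4.88), and the lysosomal protease gene CTSD 2.80-fold (2.56 to 3.07). PAPPA, the main IGFBP4 protease, was at 0 in both libraries, as was IGFBP4.

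Other genes coding for an IGFBP-like domain were measured in 5 of 13 cases, while 5 were at 0 in both libraries and 3 had reads but under 10. Of those measured, 3 were called towards MDA Pca 2b and 1 towards LNCaP, beside 10.9% and 13.2% of all measured genes. The 3 include HTRA1, already counted among the proteases above. The median log2 ratio was 3.09, which is the value of HTRA1. With genes at 0 in a library set to their bound it was 2.35, which is the bound of CTGF. CYR61, a matricellular protein of the CCN family, had 340 counts in LNCaP against 2836 in MDA Pca 2b, 10.6-fold higher in the MDA Pca 2b library (9.49 to 11.9). Its relative CTGF had 0 and 12 counts, at least 5.09-fold higher in the MDA Pca 2b library against 3 counts, with an exact interval that began at 3.54-fold. CRIM1, a membrane protein that binds bone morphogenetic proteins, had 89 counts in LNCaP against 0 in MDA Pca 2b, which puts LNCaP at least 23.3-fold higher against 3 counts, with an exact interval that began at 18.6-fold. Cell-surface partners of IGFBPs gave 0 calls among 5 measured, with a median of −0.96. TMEM219, which codes for an IGFBP3 receptor, was 2.33-fold higher in LNCaP with an interval reaching 2.00 (1.998 to 2.73).

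**Figure D4:**
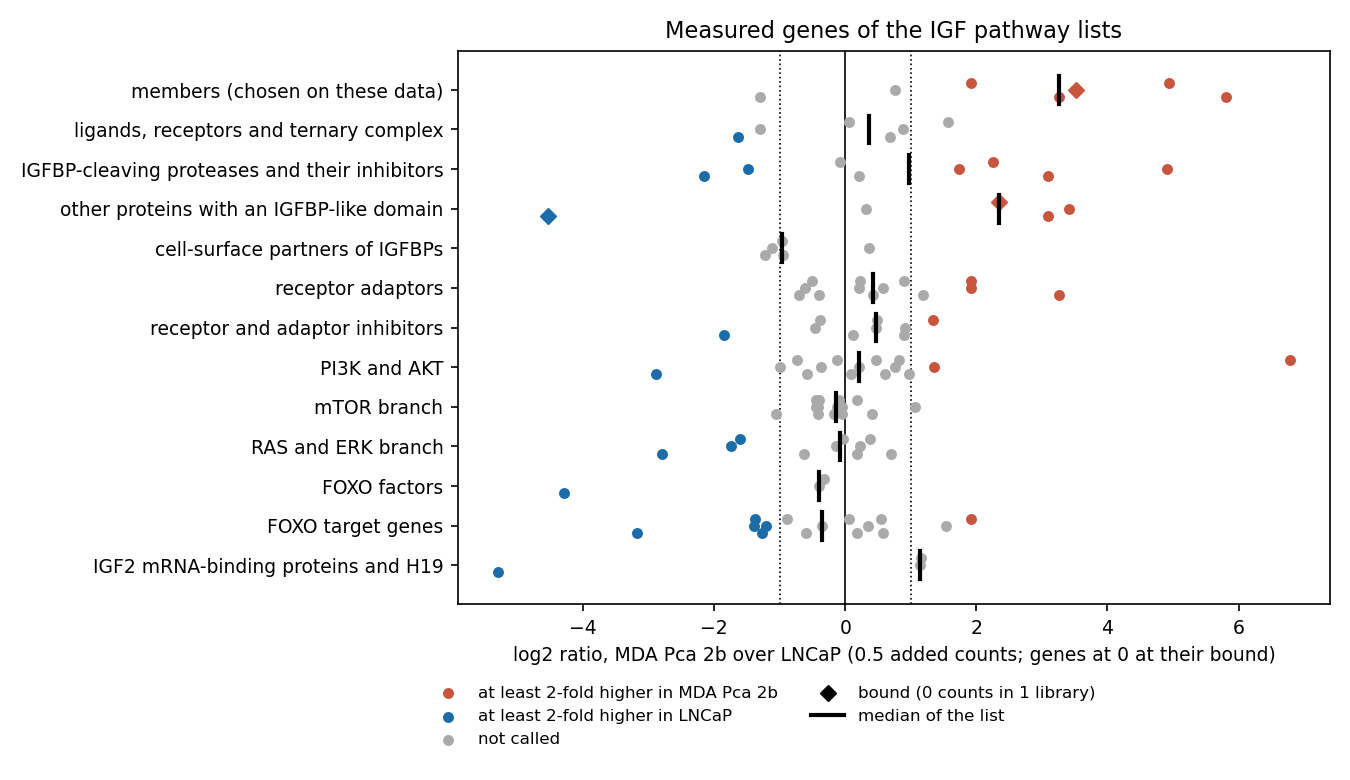
Log2 ratio, MDA Pca 2b over LNCaP, of every measured gene on the lists of the IGF pathway, with 1 point per gene and 0.5 counts added. Colour gives the call, diamonds are genes at 0 in a library drawn at their bound, and bars are list medians. The mTOR list has 0 called genes of 14. The members, chosen with these values known, have a median of 3.27. The list of IGFBP-like domains has a median of 2.35 over 5 measured genes, which is the bound of CTGF.

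Downstream of the receptor, single genes differed within lists whose median ratios were under 2-fold. Among 13 measured adaptors, 3 were called towards MDA Pca 2b and 0 towards LNCaP (median 0.42). Over all measured genes, 10.9% and 13.2% were called in these directions. The adaptor values include IRS1 and IRS2, members chosen with their values known. The other called adaptor was SOS1, the exchange factor that activates RAS. SOS1 had 344 and 1021 counts, 3.78-fold higher in the MDA Pca 2b library (3.34 to 4.28). SOS2 was 2.28-fold higher in the MDA Pca 2b library (1.64 to 3.21) and not called. Among 9 measured inhibitors of receptors and adaptors, 1 was called in each direction (median 0.47). GRB10, an adaptor that blocks signalling from the insulin and IGF1 receptors, had 4209 counts in LNCaP against 915 in MDA Pca 2b, which is 3.61-fold more in LNCaP (3.36 to 3.88). NEDD4, the ubiquitin ligase that binds GRB10, was 2.53-fold higher in the MDA Pca 2b library (2.35 to 2.72). SOCS1 and SOCS6 are not analysed here.

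Of 15 measured PI3 kinase and AKT genes, 2 were called towards MDA Pca 2b and 1 towards LNCaP (median 0.21). The shares over all measured genes were 10.9% and 13.2%. AKT1, which codes for an AKT kinase, was 2.56-fold higher in the MDA Pca 2b library (2.08 to 3.15). PIK3CD, a catalytic subunit best known from leukocytes, had 421 and 44 counts, 7.51-fold higher in LNCaP (5.50 to 10.5). PIK3R3, a regulatory subunit, was 1.99-fold higher in LNCaP (1.80 to 2.21) and not called. The mTOR list gave 0 calls among 14 measured genes (median −0.15), with DEPTOR, an mTOR inhibitor, 2.10-fold higher in the MDA Pca 2b library (1.73 to 2.56) and RICTOR, a subunit of mTOR complex 2, 2.10-fold higher in LNCaP (1.65 to 2.68).

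In the RAS and ERK list 0 of 10 measured genes were called towards MDA Pca 2b and 3 towards LNCaP, with a median of −0.09. The shares over all measured genes were 10.9% and 13.2%. NRAS had 1355 and 153 counts, 6.95-fold higher in LNCaP (5.88 to 8.27). The ERK kinase gene MAPK3 was 3.36-fold more abundant in LNCaP (2.91 to 3.89).

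FOXO1, a transcription factor that AKT holds inactive and that activates IGFBP1 and IRS2 in the liver, had 112 counts in LNCaP against 4 in MDA Pca 2b. It was 22.0-fold higher in LNCaP (8.35 to 82.1), while IGFBP1 and IRS2 were called towards MDA Pca 2b. Whether FOXO1 acts on these genes in these lines was not tested. FOXO3 was 1.32-fold higher in LNCaP (1.21 to 1.45), and FOXO6 is not analysed here. Of 15 measured genes on the list of FOXO targets, 1 was called higher in the MDA Pca 2b library and 5 in LNCaP (median −0.36). The 1 is the member IRS2 itself. IGFBP1 was not on this list, so its call towards MDA Pca 2b is not in these counts. The shares over all measured genes were 10.9% and 13.2%. SESN3, a sestrin of the stress response, was 9.17-fold higher in LNCaP (6.84 to 12.5), CCNG2 2.60-fold (2.17 to 3.13) and SESN1 2.41-fold (2.18 to 2.68). IGF2BP3, which binds IGF2 mRNA, had 75 counts in LNCaP against 1 in MDA Pca 2b, a ratio of 58.9 in favour of LNCaP (10.3 to 2357). H19, the noncoding RNA next to IGF2, was 2.22-fold higher in the MDA Pca 2b library (1.64 to 3.02) and not called.

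Over all 119 pathway genes found outside the members, 100 were measured. Of these, 10 were called towards MDA Pca 2b and 16 towards LNCaP, beside 10.9% and 13.2% of all measured genes, with a median log2 ratio of −0.04 beside −0.002.

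Both libraries carried the markers of luminal prostate epithelium. All 7 markers found were measured, with summed levels of 2684 CPM in LNCaP beside 4027 CPM in MDA Pca 2b. IGFBPs are also made by fibroblasts and endothelium, whose markers were low. The summed level of 8 fibroblast markers was 22.2 CPM in LNCaP beside 19.5 CPM in MDA Pca 2b, with COL1A2 at 0 in both. Within it COL1A1 was 4.32-fold higher in LNCaP (2.78 to 6.98) and called, while PDGFRA was 1.92-fold higher in the MDA Pca 2b library (1.46 to 2.55) and not called. The summed level of 5 endothelial markers was 3.51 and 4.35 CPM, with CDH5, KDR and TEK at 0 in both. Of the others VWF had 20 counts in LNCaP against 1 in MDA Pca 2b and was called towards LNCaP, and PECAM1 had 18 and 36 and was not called. Of 6 leukocyte markers PTPRC, CD3E and LYZ were at 0 in both, while CD14 and CD68 were 2.79-fold and 2.76-fold higher in the MDA Pca 2b library. The summed level of 4 basal epithelial markers was 16.7 CPM in LNCaP beside 796 CPM in MDA Pca 2b, of which KRT14 alone made 781 CPM. KRT14 was 52.9-fold higher in the MDA Pca 2b library (45.2 to 62.3) and called. KRT15 had 0 counts in LNCaP against 84 in MDA Pca 2b and was called towards MDA Pca 2b. It was at least 35.7-fold higher there against 3 counts, with an exact interval that began at 28.4-fold. KRT5 was 2.43-fold higher in the MDA Pca 2b library (1.40 to 4.33) and not called, and TP63 was at 0 in both. The part of any of these markers in the IGFBP values was not tested.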

How the data were processed

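Transcripts were measured in LNCaP and MDA Pca 2b, with 1 library per line. Per the labels' protocols, AmpliSeq Transcriptome libraries were made from 10 ng of total RNA. The assay amplifies 1 short amplicon per gene, so a sequence difference under a primer would lower that gene in that line. The authors deposited whole-number read counts per amplicon, with no normalization visible in them. The submitters' processing notes name hg19 as build and DESeq as tool without saying what each was used for, and the aligner and filters are not given in those sources. The table has 20812 rows, 10 of them spike-in controls at 0 counts, which were left out. In 28 rows the gene symbol had become a date, and it was restored from the gene identifier where possible; none is named here.

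CPM are counts over the effective library size, which is the total multiplied by the TMM factor of edgeR 4.0.16 (1.006 in LNCaP, 0.994 in MDA Pca 2b). The smallest step, a count of 1, is 0.0923 CPM for LNCaP and 0.117 CPM for MDA Pca 2b. Ratios carry exact Clopper-Pearson 95% intervals conditional on the sum of both counts. For a library at 0, folds were computed against 3 counts in its place, with no error on the other count, and calls used the exact interval. No molecular identifiers are recorded, so PCR copies count as reads, and intervals and limits cover counting error only. Medians of log2 ratios used 0.5 added counts. With 1 library per line no p-value was computed and edgeR's and DESeq2's tests were not run; DESeq2 1.42.0 gave size factors for an alternative scaling. The interval and call steps were tested on simulated counts with counting error only, which is the error that the intervals assume. Differences were put only into genes with many expected counts. The simulation therefore cannot speak to spread between libraries, PCR copies or the intervals of genes with few counts.

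The members and lists were chosen with earlier results of these data known. Of 162 symbols on the lists, 157 were found. Genes named are the members, all ligands and receptors, up to 4 genes of each other list with the largest interval-bounded ratio (50 counts or more in a library), the 3 genes nearest to IGFBP3 and to IGF1R, and the neighbours of members. Some genes that this rule selects are not reported here. CTSD, KLK3, CTGF, PAPPA, STC1 and STC2 were named after their values were seen. Promoter sequences are RefSeq's on GRCh38.p14, a different build from the one in the notes. Coding exons and transcript GC content came from GENCODE release 29. Alternatives were other scalings (DESeq2 size factors, library totals, upper quartile, no small nucleolar RNAs), other filters, thinning of LNCaP, an assumed spread of 20% or 40% between libraries, a 3-fold threshold and, added after seeing the data, removal of the trend with GC content, fitted by lowess (fraction 0.3) (89.6% of measured genes had a GC value).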

Additional observations from a re-analysis of the deposited data

How the results depend on the processing

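The 5 members called higher in the MDA Pca 2b library stayed called under every alternative scaling, thinning of LNCaP to the other library's total, the assumed spread of 20% and removal of the GC trend. IRS2 was lost with an assumed spread of 40% and at a 3-fold threshold, leaving 4 in each case, and IGFBP1, with 27 counts, was lost with a minimum of 50 counts, leaving 4. No member was called higher in LNCaP under any alternative run. IGFBP3 ranged from 50.6 to 60.1, and no ratio changed direction. IGFBP2, at 1.69, moved outside its interval to 1.48 without the GC trend. An assumed spread widens the intervals and leaves the ratios unchanged. With it the IGFBP2 interval spanned 1, at 20% (0.965 to 2.95) and at 40% (0.577 to 4.93). The IGF1R interval, as MDA Pca 2b over LNCaP, spanned 1 at 40% (0.134 to 1.22). These widened intervals give no direction. The 3477 genes called among all measured fell to 1935 and 1169 with an assumed spread of 20% and 40%, and to 1746 at 3-fold. The 26 pathway genes called fell to 15, 11 and 16 under the same settings; fewer calls follow from the wider intervals and the stricter threshold. No paired analysis was possible because each line has 1 library, and for the same reason no library could be left out. IGFBP6, IGFBP4, IGFBP7 and IGF2 lay under 10 counts and could not be compared at this depth.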

Other observations

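Among the IGF lists, close relatives did not all have ratios of like size or direction. Of the AKT genes, AKT1 had a ratio of 2.56 towards MDA Pca 2b, whereas AKT2 was 1.49-fold higher in LNCaP (1.36 to 1.64) and not called. Of the catalytic PI3 kinase subunits, PIK3CD was 7.51-fold and PIK3CB 1.67-fold (1.56 to 1.79) higher in LNCaP, the latter not called. PIK3CA had 109 counts in LNCaP against 99 in MDA Pca 2b, a ratio of 1.16 with an interval that spans 1 (0.872 to 1.53) and gives no direction. Of the RAS genes, NRAS was 6.95-fold higher in LNCaP, and HRAS was 1.62-fold higher in the MDA Pca 2b library (1.26 to 2.09). These genes were picked after their values were seen.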
